A study of Mus musculus with 6 samples.

Results

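The genes described here are 8 of the cytotoxic granule, Gzma, Gzmb, Gzmc, Gzmk, Prf1, Srgn, Nkg7 and Lamp1, taken by name from the 21362 genes of the deposited tables. All 8 were listed. Levels are given in CPM, the reads of a gene per 1000000 counted reads after scaling for library composition, and the mean of 7 genes reached 1 CPM, Gzmk being the exception. The genes were chosen by name, with their levels and their spread over the 6 libraries already known, so the values below are a description and no test is given.

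Cytotoxic granules are lysosomes adapted for secretion. They hold granzymes, a family of serine proteases, bound to the proteoglycan serglycin together with the pore-forming protein perforin. When the granule fuses with the plasma membrane at the contact with a target cell, perforin opens the target's membrane and granzymes cut proteins inside it. Granules of this kind are best known from CD8+ T cells and natural killer cells. Activated mouse CD4+ T cells and regulatory T cells can also make granzyme B, which regulatory T cells are known to use against other lymphocytes.

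The series concerns CD4+ T cells and sorafenib, an inhibitor of several protein kinases given against liver and kidney cancer, and its design text speaks of treated and untreated regulatory T cells. It holds 6 RNA-seq libraries, and every one carries the same description, a mouse CD4+ T cell, with nothing on strain, age, culture or treatment. The titles number the libraries 1 to 6, and every run of 6 values keeps that order. No library could be placed in a treated or untreated group, and nothing says whether they came from separate animals, so levels are given library by library with counting intervals.

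Total counts lay between 32435799 and 36316162 per library. The markers of a CD4+ T cell (Cd4, Cd3e, Cd3d, Cd3g and Cd28) all passed the minimum, and their sum was 1532 CPM at its lowest (library 5) and 1919 CPM at its highest (library 1). The 5 regulatory T cell markers did too, with sums between 2683 CPM (library 4) and 4201 CPM (library 1). Nearly all of the sum in library 1 came from Il2ra (2301 CPM), Ctla4 (1526 CPM) and Tnfrsf18 (344 CPM). Foxp3, the defining factor, added little, at 7.37, 7.66, 7.86, 11.9, 13.4 and 11.2 CPM. Of 8 natural killer cell markers in the table, 0 reached a mean of 1 CPM, and their sum lay between 1.06 CPM (library 5) and 1.74 CPM (library 6). Ncr1, a receptor that defines natural killer cells, had 0 reads in 4 of the 6 libraries. Cd8a, the CD8 chain that marks killer T cells, stayed between 0.231 and 0.661 CPM. Cd8b1, the partner chain, lay between 8.15 and 9.57 CPM. Of the mast cell markers, Tpsb2 and Mcpt4 were not analysed here, and Cpa3 and Fcer1a had 1 read each in all libraries together. Neutrophil and macrophage markers summed to 0.478 to 0.694 CPM, B cell markers to 1.86 to 3.42 CPM, and Zbtb16, the factor of natural killer T cells, lay between 1.52 and 3.03 CPM.

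Of the granzymes, Gzma encodes granzyme A, a trypsin-like protease that cuts after basic residues. It had 3163, 2528, 2647, 139, 132 and 112 reads, or 111, 79.5, 83.3, 4.34, 4.50 and 3.69 FPKM, the level per gene length. Libraries 1, 3 and 2 held the 3 highest levels, in that order. The interval of library 1 ran from 98.3 to 105 CPM and that of library 6, the lowest, from 2.59 to 3.79 CPM. The ratio of these libraries was 32.3, with a 95% interval of 26.8 to 39.4. In bulk RNA, fewer expressing cells and less RNA per cell cannot be told apart. The summed natural killer cell markers stood at 1.29, 1.62, 1.52, 1.45, 1.06 and 1.74 CPM. The summed CD8 chains stood at 9.11, 9.16, 8.52, 10.1, 9.31 and 9.84 CPM. Both sums were low, and no counting interval was computed for them. Single natural killer cell markers rested on few reads and differed. Klrd1 stood at 0.644, 0.636, 0.660, 0.396, 0.144 and 0.506 CPM, and Fcer1g at 0.193, 0.376, 0.258, 0.316, 0.374 and 0.450 CPM. The mast cell list moved with Gzma, at 12.4, 12.8, 12.7, 7.91, 6.35 and 7.11 CPM, nearly all of it from Kit, a growth factor receptor. The sums of the CD4+ and regulatory T cell markers were also higher in libraries 1, 2 and 3, but their members differed. Cd28, a costimulatory receptor, stood at 848, 786, 783, 524, 510.2 and 507 CPM. Cd3d, at 248, 238, 238, 206, 209 and 211 CPM, was also higher in libraries 1, 2 and 3. So was Cd3g, at 179, 175, 175, 143, 139 and 147 CPM. Cd4 itself, however, stood at 436, 426, 412, 479.7, 475 and 482 CPM and Cd3e between 200.3 and 218 CPM. Among the regulatory markers, Il2ra and Ctla4, both surface receptors, were higher in libraries 1, 2 and 3, Foxp3 was lower there, and Ikzf2 stayed between 23.4 and 26.5 CPM. Tnfrsf18 stood at 344, 348, 335, 298, 300 and 321 CPM. The part of these markers in the levels of Gzma and of the genes below was not tested.

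Gzmb encodes granzyme B, which cuts after aspartate and sets off the death proteases of a target cell. It was the granzyme with the most reads in every library, at 579, 539, 533, 154, 141 and 165 FPKM. Library 1 was highest, with an interval of 903 to 924 CPM, and library 5 lowest, with 199 to 209 CPM. All neighbours in the order of levels had separate intervals except libraries 2 and 3. The ratio of highest to lowest was 4.48 (95% interval 4.36 to 4.60). Gzmb lay at percentile 97.9 of measured genes by mean CPM.

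Gzmc encodes granzyme C, a close relative of granzyme B found in mouse. It stood at 2.41, 2.08, 2.04, 0.527, 0.891 and 0.787 CPM, from between 20 and 75 reads a library. Library 1 was highest and library 4 lowest, with a ratio of 4.58 (95% interval 2.76 to 7.92). Only the neighbours in the middle of the order, libraries 3 and 5, had separate intervals. Gzmc passed the minimum of 1 CPM through libraries 1, 2 and 3 alone. Gzmk encodes granzyme K, the trypsin-like relative of granzyme A. It stood at 0.515, 0.405, 0.229, 0.554, 0.316 and 0.478 CPM, from 8 to 21 reads. No neighbours in its order had separate intervals, and library 4, among the 3 lowest for Gzma, Gzmb and Gzmc, was highest.

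The remaining mouse granzyme genes were scarce. Gzmd, Gzme, Gzmf, Gzmg and Gzmn had 26, 5, 35, 10 and 1 reads in all 6 libraries together, and none of these reached a mean of 1 CPM. Library 4 held 0 reads of each of these 5 genes. Gzmm, which encodes granzyme M, had 30, 56, 51, 76, 54 and 36 reads. Its CPM was highest in library 4 and lowest in library 1, but no neighbours in its order had separate intervals. Its range of 2.02-fold was 1.98-fold with DESeq2 size factors, 1.93-fold without library 1 and 1.64-fold without library 4.

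Granzyme genes share sequence, which bears on how their reads were assigned. The main transcripts of Gzmb and Gzmc align over 821 bases with 80.5% identity, and those of Gzmc and Gzmd over 516 bases with 87.8%. In the GENCODE mouse transcripts, 0 of the 1387 stretches of 50 bases in Gzmb occur in another gene. For Gzma it was 0 of 1004. Of 845 such stretches in Gzmc, 35 (4.14%) occur elsewhere, 32 of them in Gzme. How far this alters the level of Gzmc was not measured, and Gzme itself had 5 reads in all.

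**Figure D1:**
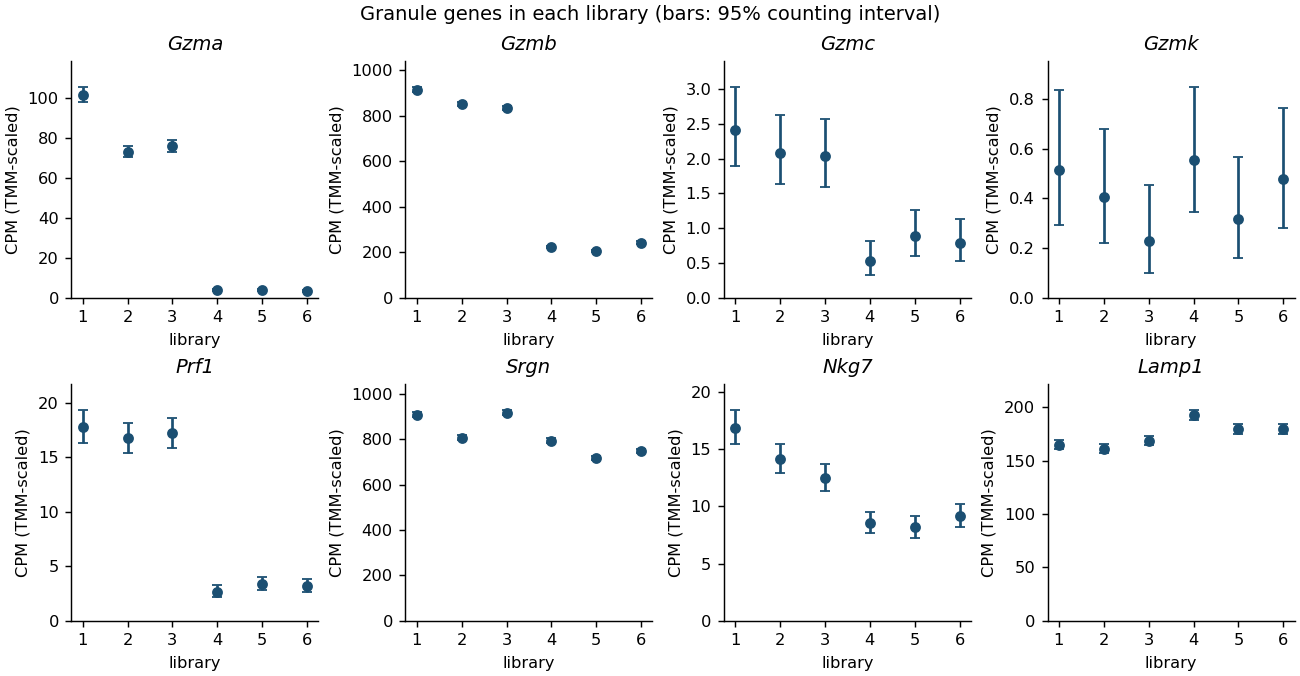
Level of each granule gene in each library in CPM (y axis, from 0, a scale of its own per panel), with bars for the 95% counting interval. Gzma, Gzmb, Gzmc and Prf1 were highest in library 1, with Gzmb at 913 CPM there against 204 CPM in library 5, whereas Lamp1 stayed between 161 and 193 CPM.

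Prf1 encodes perforin, without which granzymes do not enter a target efficiently. It had 551, 579, 599, 101, 117 and 112 reads, or 6.37, 6.02, 6.23, 1.04, 1.32 and 1.22 FPKM. Only between library 2 and library 5, neighbours in the order of levels, were the intervals separate. The ratio of library 1 to library 4 was 6.66 (95% interval 5.38 to 8.32). Perforin RNA was far below granzyme B RNA per gene length, with FPKM ratios of 0.0110, 0.0112, 0.0117, 0.00677, 0.00935 and 0.00738.

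Upstream sequences are shown for the granzyme and perforin genes that ranged most, and for Lamp1, which ranged least, so that their letters can be set side by side. Each holds the 250 bases before the RefSeq start on GRCm38.p6, written 5′ to 3′ along the gene. They are chr13:113100982-113101231 (minus strand) for Gzma, chr14:56262335-56262584 (minus strand) for Gzmb, chr14:56234658-56234907 (minus strand) for Gzmc, chr10:61297586-61297835 (plus strand) for Prf1 and chr8:13158911-13159160 (plus strand) for Lamp1. Capitals mark every match, on either strand, to the AP-1 letters TGANTCA, the cAMP response element TGACGTCA, the STAT letters TTCNNNGAA, the RUNX letters TGTGGT, the T-box letters AGGTGTGA, or the core promoter letters TATAAA.
Gzma: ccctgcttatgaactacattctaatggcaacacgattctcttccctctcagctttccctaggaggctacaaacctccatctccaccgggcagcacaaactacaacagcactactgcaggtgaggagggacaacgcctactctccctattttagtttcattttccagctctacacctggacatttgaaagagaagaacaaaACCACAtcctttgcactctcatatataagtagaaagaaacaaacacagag
Gzmb: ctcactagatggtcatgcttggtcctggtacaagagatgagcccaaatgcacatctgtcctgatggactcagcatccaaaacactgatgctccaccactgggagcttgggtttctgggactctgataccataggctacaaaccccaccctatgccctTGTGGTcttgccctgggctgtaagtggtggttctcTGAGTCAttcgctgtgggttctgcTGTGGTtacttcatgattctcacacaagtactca
Gzmc: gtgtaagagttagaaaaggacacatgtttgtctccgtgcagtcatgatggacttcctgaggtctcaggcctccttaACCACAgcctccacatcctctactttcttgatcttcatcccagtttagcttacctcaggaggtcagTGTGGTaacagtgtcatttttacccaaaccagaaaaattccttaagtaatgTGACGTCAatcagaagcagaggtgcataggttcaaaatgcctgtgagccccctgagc
Prf1: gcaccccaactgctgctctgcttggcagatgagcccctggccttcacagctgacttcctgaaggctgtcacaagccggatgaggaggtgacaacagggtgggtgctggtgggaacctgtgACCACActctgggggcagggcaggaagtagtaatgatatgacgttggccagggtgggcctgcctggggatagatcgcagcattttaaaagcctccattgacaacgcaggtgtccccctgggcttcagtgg
Lamp1: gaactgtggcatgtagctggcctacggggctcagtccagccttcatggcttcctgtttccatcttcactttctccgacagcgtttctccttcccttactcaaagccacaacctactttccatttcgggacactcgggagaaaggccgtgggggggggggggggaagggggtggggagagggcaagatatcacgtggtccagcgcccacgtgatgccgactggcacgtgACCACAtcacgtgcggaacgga
The RUNX letters TGTGGT, or ACCACA on the other strand, were in 7 of the 9 upstream windows that the 8 genes have in the table, since Srgn has more than 1 start. They were in 14.0% of all 32851 windows of the same length, which were not matched for base composition. The genes with a match were Gzma, Gzmb, Gzmc, Prf1, Nkg7, Lamp1 and 1 start of Srgn, so a match was found in genes of wide and of narrow range. Gzmb alone of the 8 held the AP-1 letters, 58 to 52 bases before the start (6.75% of all windows). Gzmc alone held the cAMP response element, 57 to 50 bases before the start (1.55%). Nkg7 alone held the T-box (1.12%) and STAT (7.02%) letters. An upstream window of Srgn alone held the core promoter letters TATAAA, 98 to 93 bases before the start (12.4%). Only the letters given were searched, so variants of a site were not counted. The core of NFAT sites, GGAAA, was also searched and was in windows of 4 of the 8 genes and in 55.6% of all windows. In Nkg7 it overlapped the STAT match. A match of letters is not evidence that a factor binds there.

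Srgn, Nkg7 and Lamp1, the carrier and the membrane proteins, ranged less than Gzma, Gzmb, Gzmc and Prf1. Srgn encodes serglycin, the proteoglycan core protein on which granzymes are packed. It stood at 907, 807, 916, 794, 716 and 748 CPM. Library 3 was highest and library 5 lowest, a ratio of 1.28 (95% interval 1.26 to 1.30). With plain total counts the range was 1.19-fold. Srgn lay at percentile 98.7 of measured genes by mean CPM.

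Nkg7 encodes a membrane protein of cytotoxic granules that takes part in their release. It stood at 16.9, 14.2, 12.5, 8.54, 8.19 and 9.14 CPM. Library 1 was highest and library 5 lowest, with a ratio of 2.06 (95% interval 1.78 to 2.39). Nkg7 lies at the edge of the 2-fold mark. Its range was 1.72-fold without library 1, 1.97-fold without library 5, and 1.88-fold with the deposited FPKM values.

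Lamp1 encodes the lysosome membrane protein that appears at the cell surface when granules are released. It stood at 165, 161, 169, 193, 179.7 and 179.7 CPM. Library 4 was highest and library 2 lowest, a ratio of 1.19 (95% interval 1.15 to 1.24). With plain total counts the range was 1.30-fold, and without library 4 it was 1.11-fold in CPM. Of 2625 stretches of 50 bases in Lamp1 transcripts, 155 occur in Grtp1, its neighbour on the chromosome, which had a mean of 1.84 CPM.

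Between highest and lowest library, 5 of the 7 measured granule genes spanned at least 2-fold, which 10.5% of the 11516 genes that reached the minimum also did. At 4-fold the count was 4 of 7, against 1.30% of all genes. The median range was 4.23-fold for the granule genes and 1.29-fold for all measured genes. That median is the range of Gzmc, which is in both counts and passed the minimum through libraries 1, 2 and 3 alone. The granule genes were picked with these ranges known, so nothing is read from the difference.

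**Figure D2:**
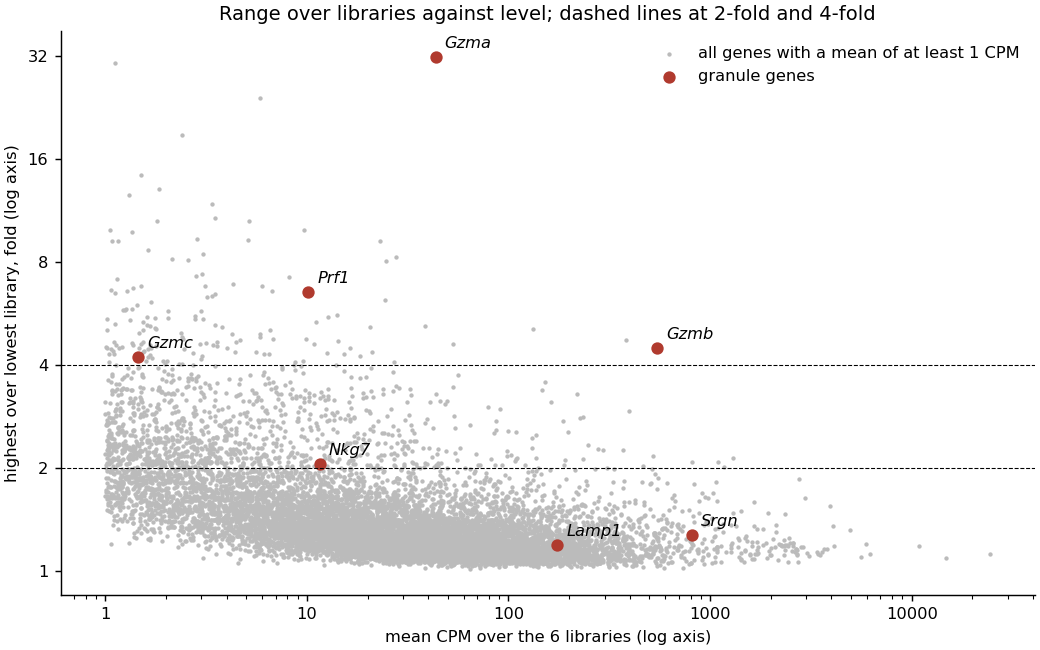
Range over libraries, highest over lowest in fold (y axis, log scale), against mean CPM (x axis, log scale), for 11516 genes in grey and the 7 measured granule genes in red. Gzma stands at 31.8-fold and Gzmb at 4.48-fold with a high level, while Lamp1 and Srgn lie near the bulk of genes at 1.19-fold and 1.28-fold.

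Levels per gene length give the make-up of the granule transcripts within a library. In libraries 1, 2 and 3 the order by FPKM was Gzmb, Srgn, Gzma, Lamp1, Nkg7, Prf1, Gzmc and Gzmk. In libraries 4, 5 and 6 Srgn stood first and Gzmb second, and Gzma came after Lamp1 and Nkg7. Gzmc and Gzmk held the last places, and their order differed in library 4. The FPKM ratio of Gzmb to Srgn was 1.85, 1.93, 1.67, 0.516, 0.523 and 0.594. Granzyme B RNA was thus above serglycin RNA per length in libraries 1, 2 and 3, and below it in libraries 4, 5 and 6.

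**Figure D3:**
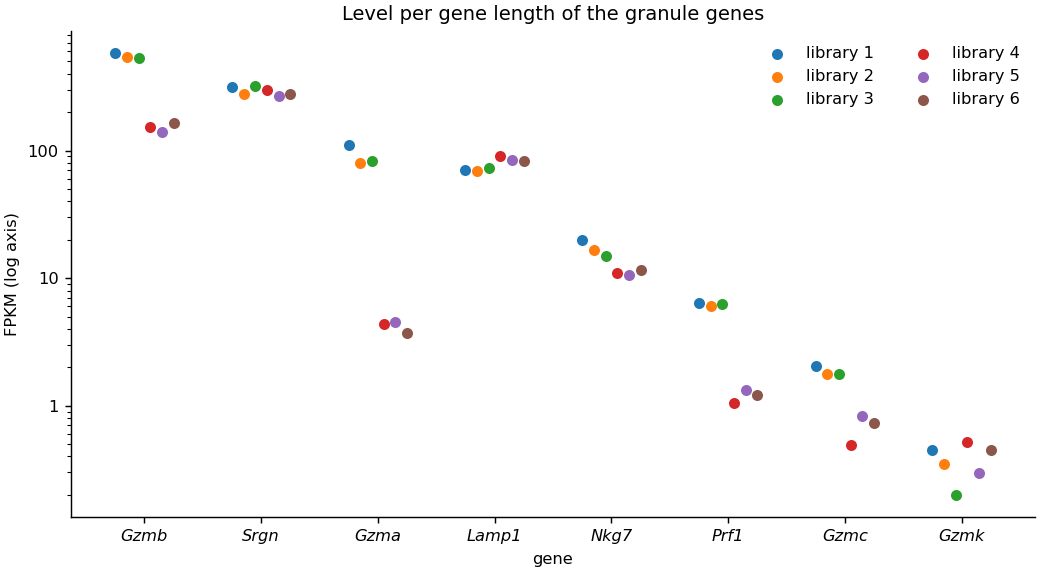
FPKM of each granule gene (y axis, log scale) with 1 point per library. Gzmb spans 141 to 579 FPKM and Srgn 269 to 319 FPKM, and Gzma spans 3.69 to 111 FPKM, crossing the levels of Lamp1 and Nkg7.

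The granzymes did not keep a fixed ratio to each other. The FPKM ratio of Gzma to Gzmb was 0.191, 0.148, 0.156, 0.0282, 0.0319 and 0.0223. Its counting interval was 0.184 to 0.198 in library 1 and 0.0184 to 0.0269 in library 6, so the libraries differed by more than counting error. Gzma made up 16.0%, 12.8%, 13.4%, 2.70%, 3.04% and 2.16% of the summed FPKM of the 10 granzyme genes, and Gzmb between 83.5% and 96.6%. The ratio of Gzmc to Gzmb had overlapping counting intervals in all libraries, from 0.00319 in library 4 to 0.00590 in library 5. With 20 to 75 Gzmc reads a library these intervals are wide, so the overlap cannot show that the ratio was kept. All granzyme genes together took between 0.0220% and 0.0977% of a library's counts.

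**Figure D4:**
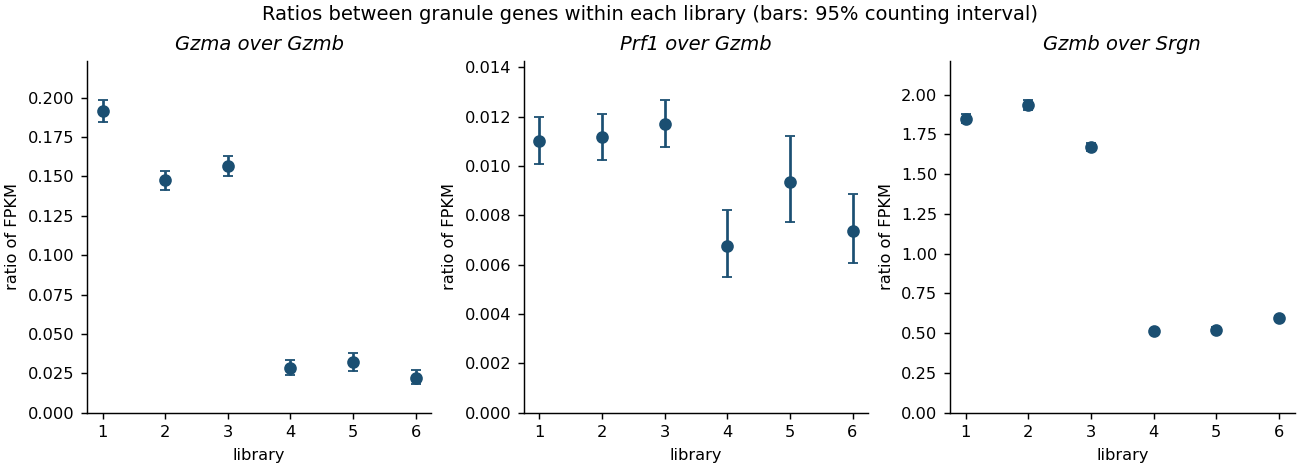
Ratio of FPKM between granule genes within each library (y axis, from 0), with bars for the 95% counting interval. Gzma over Gzmb lies between 0.148 and 0.191 in libraries 1, 2 and 3 and between 0.0223 and 0.0319 in libraries 4, 5 and 6, and Gzmb over Srgn crosses 1.

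Genes with profiles most like the members differed in how close they came. Likeness is the root mean square distance in log2 units over the 6 libraries, and 8202 genes were searched. The distance is not scaled by range, so genes of narrow range, such as Srgn and Lamp1, lie close to many genes. A gene of very wide range, such as Gzma, lies close to few. For Gzmb the nearest were Ecm1, an extracellular matrix protein gene, at 0.09, Tpbg, the trophoblast glycoprotein, at 0.11, and Tgfb3, a member of the TGF-beta family, at 0.11. Ecm1 ranged from 144 to 682 CPM, and Tgfb3 from 24.1 to 90.4 CPM. For Prf1 they were Smtn, a protein of the smooth muscle cytoskeleton, at 0.12, Spp1, the secreted protein osteopontin, at 0.15, and Tgm1, a transglutaminase, at 0.15. For Gzmc they were Dennd3, Slc41a2 and Efna5, at 0.16, 0.17 and 0.17. For Gzma no gene came as close. Its nearest were the stefin genes Cstdc4 and Csta2, close relatives whose reads may not be fully told apart, at 0.84 and 0.87, and Smtn, at 1.03. Cstdc4 ranged 9.23-fold and Csta2 8.27-fold, against 31.8-fold for Gzma.

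Nkg7 lay nearest to Ripor2, Nsd3 and Lrrc32, each at 0.09. Lrrc32 encodes GARP, the surface protein that holds latent TGF-beta on regulatory T cells, and ranged from 36.0 to 66.7 CPM. Srgn lay nearest to Crebzf, Sfr1 and Mbnl2 at 0.02 to 0.03, and Lamp1 to Far1, Caprin1 and Cpox at 0.01 to 0.02. Between members, Gzmb and Prf1 were the closest of the wide-ranging genes at 0.30, followed by Gzmb and Gzmc at 0.33. Gzma was 1.05 from Prf1 and 2.35 from Lamp1.

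Around the 8 genes, 10 companion lists gathered other genes of granule make-up and use. Of 109 listed genes in the table, 82 reached the minimum, and 11 (13.4%) passed 2-fold, near the 10.5% of all genes. Without library 1 the count was 7. The median companion gene ranged 1.28-fold.

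Of 7 measured genes of protease activation, 0 ranged 2-fold or more, against 10.5% of all genes, and their median range of 1.26-fold was close to the 1.29-fold of all genes. Ctsc, the cathepsin that cuts granzyme precursors into active enzyme, ranged 1.10-fold, and Cst7, the cystatin that restrains it, 1.08-fold. Ctsd, a lysosomal protease and the most abundant of the list, ranged from 248 to 268 CPM. Ctsw, a cathepsin of killer cells, had the widest range of the list, 1.87-fold. Of 3 measured serpins listed as blocking granzymes in the cell that makes them, 0 passed 2-fold, against 10.5% of all genes. So few genes cannot be set against that share. Serpinb9b, also listed, lay under the minimum, with 12, 22, 17, 1, 2 and 5 reads. Serpinb9, the granzyme B inhibitor, ranged 1.70-fold and was highest in library 4 and lowest in library 1, whereas Gzmb was highest in library 1. Serpinb6b, the most abundant serpin of the list, ranged from 142 to 158 CPM.

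Of 13 measured genes of granule transport and release, 2 (15.4%) ranged 2-fold or more, against 10.5% of all genes. Unc13d, which primes granules for fusion, ranged 1.10-fold, and Rab27a, which docks them at the membrane, 1.16-fold. Stx11, a membrane fusion protein, ranged 1.29-fold, and its partner Stxbp2 from 128 to 164 CPM. Syt7, a calcium sensor of lysosome fusion, had the widest range of the companions, with 1.87, 1.88, 2.07, 0.237, 0.172 and 0.253 CPM, 9.23-fold. On the scale of log2 FPKM with a pseudocount of 0.1 its range was 2.36-fold. Its mean of 1.08 CPM passed the minimum through libraries 1, 2 and 3 alone. Cd63, a tetraspanin of granule membranes, stood at 5.37, 4.94, 5.11, 1.95, 2.79 and 3.01 CPM, 2.70-fold, and 1.91-fold without library 4.

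Of 13 measured genes of the lysosome membrane and its acidification, 0 ranged 2-fold or more, against 10.5% of all genes. Their median range was 1.17-fold. The most abundant, Igf2r, a receptor that carries enzymes to the lysosome, ranged from 249 to 322 CPM. Among 12 measured genes that build the sugar chains of proteoglycans such as serglycin, Xylt1, which starts the chain, ranged 3.06-fold, and 1.54-fold without library 2. Chst12, which adds sulfate to chondroitin and was the most abundant of the list, ranged from 44.0 to 78.4 CPM.

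Other routes of killing gave mixed results. Of 8 measured death ligands and effector cytokines, 4 ranged 2-fold or more, against 10.5% of all genes. The list is short and was chosen with earlier results of these data known, so nothing is read from the difference. Ccl3 and Ccl4, chemokines often made beside granzymes, ranged 2.47-fold and 2.96-fold. Ccl4 stood at 27.7, 24.1, 29.4, 12.4, 9.89 and 14.1 CPM. Ccl5, a chemokine stored in the secretory compartment of killer cells, stood at 15.0, 15.9, 16.7, 35.8, 33.1 and 29.8 CPM. Its 3 lowest libraries were the 3 highest for Gzma, Gzmb and Prf1. Fasl, the ligand of the death receptor Fas, ranged from 1.12 to 3.03 CPM, 2.61-fold, and 1.91-fold without library 6. Lta, the lymphotoxin gene and the most abundant of the list, ranged from 222 to 304 CPM. Ifng, the gene of interferon gamma, ranged 1.53-fold, and Tnf 1.46-fold.

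Most killer cell receptor genes lay under the minimum, with 4 of 14 listed genes measured, against 11516 of 21362 genes in all. Of the 4, 1 (25.0%) ranged 2-fold or more, against 10.5% of all genes. Crtam, an adhesion receptor of cytotoxic T cells, ranged from 2.06 to 4.86 CPM, 2.33-fold, and 1.95-fold both without library 1 and with the deposited FPKM values. Slamf7, the most abundant, ranged from 302 to 481 CPM. Granule enzymes of other lineages were scarce, and 0 of the 5 myeloid and mast cell genes of this list in the table (Elane, Prtn3, Cma1, Cpa3 and Mpo) reached a mean of 1 CPM. Mpo, a peroxidase rather than a protease, had the most reads, with 54 reads in all libraries together.

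Of 21 measured transcription factors of cytotoxic cells, 2 (9.52%) ranged 2-fold or more, near the 10.5% of all genes. Maf, a factor shared by several T cell subsets, ranged from 190.4 to 431 CPM, 2.26-fold. Zeb2, a repressor of late effector cells, stood at 30.2, 26.2, 28.9, 16.6, 17.4 and 15.0 CPM, 2.01-fold. That range was under 2-fold with plain total counts, with the deposited FPKM values, and without library 1 or 6. Tbx21, which encodes T-bet, ranged 1.19-fold and was lowest in library 1. Runx3 and Prdm1, which encode a RUNX factor and Blimp-1, ranged 1.53-fold and 1.69-fold. Irf4, the most abundant factor, ranged from 895 to 1050.2 CPM. Eomes, the T-box factor of killer cells and of memory, had a mean of 0.387 CPM.

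**Figure D5:**
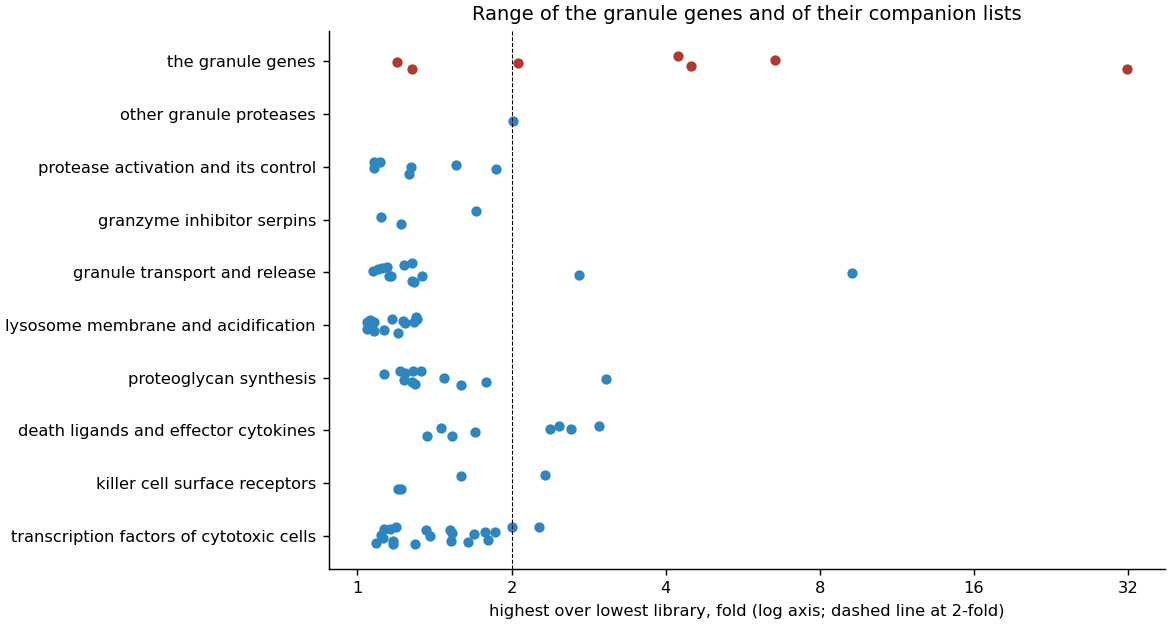
Range over libraries, highest over lowest in fold (x axis, log scale), for the 7 measured granule genes in red and the measured genes of 9 companion lists in blue, 1 point per gene. In 3 of the lists no gene passes the dashed 2-fold line, and of the companion genes only Syt7, at 9.23-fold, lies past 4-fold.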

How the data were processed

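The 6 libraries hold TRIzol-extracted RNA of mouse CD4+ T cells, and the labels' protocols give the VAHTS Universal V5 kit for library preparation. In the submitters' processing notes stand fastp, HISAT2, HTSeq, R 3.2.0, DESeq2 and GRCm39, while annotation, strand and filters are not given there. The authors deposited raw read counts and FPKM values per gene, 1 column a library. The deposited FPKM proved to be the same counts over length and total (relative deviation up to 2.86e-06), so they are no separate evidence.

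As the labels name no treatment, no library was grouped, averaged with others or tested. The members and gene lists were chosen with earlier results of these data known. Counts were scaled by TMM factors (0.958 to 1.04; edgeR 4.0.16 on R 4.3.3) to CPM. A range is the highest over the lowest library on log2 CPM after a prior count of 2, computed for 11516 genes whose mean reached 1 CPM (Python 3.11.15, numpy 2.4.6, pandas 2.3.3, scipy 1.17.1). Intervals are exact Clopper-Pearson 95% intervals of a count's share, and exact binomial ones for a ratio of counts. Without molecular identifiers PCR copies cannot be told from separate molecules, so both cover counting error only. The procedure was run on simulated counts with planted differences and counting error only. That run says nothing of other variation between the libraries.

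Genes were named by rule, namely the members, the other granzyme genes, the most abundant gene of each companion list, up to 4 genes a list that ranged 2-fold or more, the 3 genes most like each member among those averaging 10 CPM or more, and the cell type markers. Serpinb9, Ctsc, Cst7, Ctsw, Tbx21, Runx3, Prdm1, Unc13d, Rab27a, Stx11, Ifng, Tnf and Eomes, and the chromosomal neighbours, were chosen after their values were seen. Promoters and neighbours came from RefSeq and transcripts from GENCODE M21, none of which is on the files' build. The alternatives were DESeq2 1.42.0 size factors, total counts, FPKM with a pseudocount of 0.1, a prior count of 0.5, a higher minimum (5 CPM), no minimum, and leaving out each library.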

Additional observations from a re-analysis of the deposited data

How the results depend on the processing

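The count of members that ranged 2-fold or more was 5, and 4 with total counts, with the deposited FPKM values or at a minimum mean of 5 CPM. It was 6 without a minimum, where Gzmk entered at 2.13-fold, and 4 to 5 when each library was left out. The count at 4-fold was 4, and 3 to 4 in the alternatives. All genes at 2-fold numbered 1204, or 450 at a minimum of 5 CPM and 6870 without a minimum, and 1040 to 1092 without a library. Companion genes at 2-fold numbered 11, or 5 at a minimum of 5 CPM, 30 without a minimum, and 7 to 12 without a library. Over 12 alternatives the members gave 95 ranges, of which 12 lay outside the counting interval and 6 changed side of 2-fold, in Gzmk and Nkg7. Of 54 other named genes, 7 changed side in at least 1 alternative. A minimum of 5 CPM gave no value for Gzmc. Gzma, Gzmb, Gzmc and Prf1 stayed past 2-fold wherever a value was given, at 23.7-fold to 32.4-fold for Gzma. No paired analysis was possible because the labels give no groups. Depth limits Gzmk and Gzmc, with 8 to 75 reads a library, since a floor of 3 counts stood for up to 0.0966 CPM.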

Other observations

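For 5 of the 8 genes the widest gap in level lay between the same libraries. Gzma stood at 102, 73.1, 75.9, 3.67, 3.79 and 3.15 CPM in libraries 1 to 6, and the widest gap between neighbouring libraries was 19.0-fold, between library 2 and library 5. Above the gap the libraries differed by at most 1.39-fold and below it by at most 1.20-fold. Prf1, with 17.7, 16.7, 17.2, 2.66, 3.36 and 3.15 CPM, had a gap of 4.91-fold, and Gzmb, with 913, 849.7, 833, 223, 204 and 242 CPM, one of 3.44-fold. For Gzmc the gap was 2.21-fold and for Nkg7 1.36-fold, about as wide as the 1.35-fold among the libraries above it. In these 5 genes libraries 1, 2 and 3 lay above the gap. The widest gap of 2158 of the 11516 measured genes (18.7%) set the same libraries above it, and that of 1852 (16.1%) set them below it, so many other genes share this split. For Gzmk the widest gap was 1.30-fold, with library 3 alone below it. For Srgn the widest gap was 1.12-fold, with libraries 1 and 3 above it, and for Lamp1 1.07-fold, with library 4 above it. The labels do not say what sets these libraries apart.

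Among genes beside the members on the chromosome, Adamts14, an extracellular protease gene next to Prf1, was lowest in library 4, at 0.765 CPM, and highest in library 1, at 6.02 CPM, a range of 7.39-fold. These are also the libraries in which Prf1 was lowest and highest. On the scale of log2 FPKM with a pseudocount of 0.1 the range of Adamts14 was 4.70-fold. Of 2532 stretches of 50 bases in Prf1 transcripts, 0 occur in another gene. Esm1, next to Gzmk, ranged 3.38-fold, and 2.08-fold without library 1. It stood at 2.51, 1.47, 1.52, 1.05, 0.776 and 0.703 CPM, so libraries 5 and 6 lay under the minimum of 1 CPM. Cldnd2, next to Nkg7, ranged 2.58-fold, and 1.99-fold without library 3. Of 7 measured neighbours that are not members, 3 ranged 2-fold or more, against 10.5% of all genes, and Cldnd2 drops from that count without library 3. Adamts14, Esm1 and Cldnd2 had means of only 3.02, 1.34 and 1.61 CPM, and none would pass a minimum of 5 CPM. The 10.5% was not matched for level, so nothing is read from the difference. On the other side, Vps26a and Kifbp, beside Srgn, ranged 1.17-fold and 1.10-fold, and Cul4a, beside Lamp1, 1.13-fold.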
